A study of Mus musculus with 6 samples.

Results

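*Gas5* and the *Snhg* genes are hosts of small nucleolar RNAs (snoRNAs), and they were followed in 6 bulk RNA-seq libraries of cultured mouse splenic B cells. The set held 8 genes, *Gas5*, *Snhg1*, *Snhg3*, *Snhg5*, *Snhg6*, *Snhg7*, *Snhg8* and *Snhg12*, out of the 46983 genes listed. They were chosen by the values of these same libraries, since the level of *Gas5* differed between the genotypes and the *Snhg* genes are hosts like it, so their differences are described and not tested. Of the 8 genes, 7 had a listed gene ID with their symbol in GENCODE vM21, 6 had values above 0, and those 6 also passed the filter on low values. *Snhg7* had no such ID among those listed, and its level was not analysed here.

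The libraries were 3 WT and 3 *Hif1a* KO. In the KO, *Hif1a* f/f mice carried *Mb1*-cre, in which cre recombinase is expressed from *Mb1* (*Cd79a*), a gene of the B-cell lineage, so the deletion starts early in that lineage. The WT animals were littermates of either *Hif1a* f/+ genotype with cre or *Hif1a* f/f genotype without it, and the genotype behind each WT library is not given. All mice were on the C57BL/6 background, and no age was given for these libraries. Both groups were stimulated alike for 3 days with 5 μg/ml of LPS and 10 ng/ml each of TGF-β, IL-5 and BAFF, a mixture that drives switching to IgA. The comparison asks what B cells express without HIF-1α, the oxygen-regulated subunit of the hypoxia-inducible transcription factor. Nothing states that each library came from a separate mouse, so the spread between them may be technical in part. By the sex-linked genes given below, KO replicate 2 came from a male and the other libraries from females.

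Small nucleolar RNAs guide the chemical modification of ribosomal RNA in the nucleolus. Box C/D snoRNAs direct ribose methylation and box H/ACA snoRNAs direct pseudouridylation, and in mammals most of both kinds are cut from introns of host genes. In *Gas5* (growth arrest specific 5) and the *Snhg* genes the spliced exons encode no known conserved protein, and the spliced *Gas5* RNA is known to be removed by nonsense-mediated decay when it is translated, to build up in growth-arrested cells and to bind the glucocorticoid receptor. Many hosts, and nearly all ribosomal protein genes, start their transcripts with a C and a run of pyrimidines (a 5′ terminal oligopyrimidine or TOP start), which links translation of these RNAs to growth signals.

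The snoRNAs inside *Gas5* with a *Snord* name (of *Snord80*, 1 of its 2 overlapping copies) and *Snord87* of *Snhg6* are shown because they are what the hosts are known for. The capitals mark box C (TGATGA, or TGATG where the last letter differs) near the 5′ end and box D (CTGA) near the 3′ end, and the letters are those of GENCODE vM21 transcripts on GRCm38.
Snord78, chr1:161036984-161037049, plus strand: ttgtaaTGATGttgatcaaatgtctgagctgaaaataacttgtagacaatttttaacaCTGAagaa
Snord80, chr1:161037604-161037680, plus strand: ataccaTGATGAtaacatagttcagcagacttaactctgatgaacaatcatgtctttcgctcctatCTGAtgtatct
Snord47, chr1:161038082-161038158, plus strand: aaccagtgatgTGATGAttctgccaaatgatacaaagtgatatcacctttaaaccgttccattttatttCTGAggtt
Snord87, chr1:9942463-9942549, minus strand: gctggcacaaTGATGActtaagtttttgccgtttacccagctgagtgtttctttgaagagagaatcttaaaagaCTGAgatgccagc

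The bases around the annotated starts are shown because they are the part of the genes that the *Hif1a* comparison and the TOP rule bear on. RefSeq (GRCm38.p6) gave 8 windows for 7 of the 8 genes, 2 of them for *Gas5*, and none for *Snhg6*. Each line runs from 45 bases before the start to 25 bases from the start on, 5′ to 3′ on the strand of the gene, and capitals mark TATAAA or TATATA with its first letter 50 to 10 bases before the start and the TOP run, a C within 5 bases of the start followed by at least 4 further C or T letters.
Gas5 upstream start, chr1:161034556-161034625: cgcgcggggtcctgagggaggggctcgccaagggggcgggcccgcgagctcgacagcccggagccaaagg
Gas5 downstream start, chr1:161035121-161035190: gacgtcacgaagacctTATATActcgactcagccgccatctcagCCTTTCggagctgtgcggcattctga
Snhg1, chr19:8723442-8723511: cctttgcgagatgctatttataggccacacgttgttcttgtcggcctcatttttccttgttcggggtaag
Snhg3, chr4:132353662-132353731: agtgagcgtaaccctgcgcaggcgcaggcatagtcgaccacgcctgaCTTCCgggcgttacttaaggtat
Snhg5, chr9:88522873-88522942: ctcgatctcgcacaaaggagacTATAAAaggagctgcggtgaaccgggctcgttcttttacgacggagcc
Snhg7, chr2:26640220-26640289: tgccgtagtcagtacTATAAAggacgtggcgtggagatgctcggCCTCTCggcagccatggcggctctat
Snhg8, chr3:123508312-123508381: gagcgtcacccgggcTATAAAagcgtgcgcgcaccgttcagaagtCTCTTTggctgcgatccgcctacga
Snhg12, chr4:132308633-132308702: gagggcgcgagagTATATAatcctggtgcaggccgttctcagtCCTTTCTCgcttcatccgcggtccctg

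A TATAAA or TATATA stood in this place in 5 of the 7 host genes with a window (*Gas5* at the downstream start, *Snhg5*, *Snhg7*, *Snhg8* and *Snhg12*), against 4.24% of the 27025 genes of the same table. TATATA was added to the search after the sequences were seen, and TATAAA alone stood in 3 of the 7 against 3.02% of all genes. A TOP run stood at the start of 5 of the 7 (*Gas5* downstream, *Snhg3*, *Snhg7*, *Snhg8* and *Snhg12*), against 21.2% of all genes, 22.7% of 22 established protein-coding snoRNA hosts and 47.5% of 59 ribosomal protein genes. Nearly all ribosomal protein genes are known to have TOP starts, so the rule at these annotated starts misses many. The shares therefore do not rank the sets by their true TOP starts. The upstream start of *Gas5*, 565 bases before the downstream one, held neither. *Snhg1* and *Snhg5* had C and T letters beside the annotated start that did not meet the rule. Counted from a C, the longest run that began within 15 bases of the start was 4 letters in *Snhg1* and 5 in *Snhg5*.

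The core of the hypoxia response element, the sequence that HIF proteins bind, was searched as ACGTG or GCGTG on either strand in the whole windows of 300 bases (250 before the start and 50 from it on). It stood at least once in 6 of the 7 host genes, against 46.7% of all genes and 81.8% of the protein-coding hosts. *Snhg5* had 5 matches, *Snhg1* had 3, *Snhg3*, *Snhg7*, *Snhg8* and the downstream start of *Gas5* had 2 each, and *Snhg12* and the upstream start of *Gas5* had 0. The E-box CACGTG, which contains ACGTG, stood in 0 of the 7 against 8.09% of all genes. The window of the downstream *Gas5* start (chr1:161034916-161035215, plus strand) is shown whole because *Gas5* is the gene with the large difference, with the 2 GCGTG matches, TATATA and the TOP run in capitals.
Gas5 downstream start: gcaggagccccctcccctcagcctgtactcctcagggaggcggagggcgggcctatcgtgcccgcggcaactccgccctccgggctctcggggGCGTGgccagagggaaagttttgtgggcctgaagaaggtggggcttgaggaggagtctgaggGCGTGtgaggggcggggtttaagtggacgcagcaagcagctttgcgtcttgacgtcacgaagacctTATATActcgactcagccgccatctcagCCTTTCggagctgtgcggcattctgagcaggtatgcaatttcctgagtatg
A match describes letters only. Binding of HIF-1α to these windows was not measured here.

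GENCODE vM21 placed 29 snoRNA genes on the strand of and inside the 7 host genes with an ID, with 10 in *Gas5*, 8 in *Snhg1*, 5 in *Snhg12*, 2 each in *Snhg3* and *Snhg5*, and 1 each in *Snhg6* and *Snhg8*. All 10 in *Gas5* were listed at 0 in every library, and 2 of the 29 were above 0 anywhere. Of the 29, 27 overlap an annotated exon of their host, and how reads on both genes were counted is not stated, so a listed 0 is no measure of a snoRNA. *Snord87* had 3, 0 and 1 reads in the WT and 0, 1 and 0 in the KO libraries, and 1 annotated copy of *Snora16a* in *Snhg12* had 1 read, in WT replicate 1. Among all genes listed, 308 of 1507 snoRNA genes were above 0. The values of the hosts below are values of the host gene as counted, and say nothing about the level of the mature snoRNAs. In the drawing of gene structures, exons of annotated transcripts cover most of *Gas5*, *Snhg1*, *Snhg8* and *Snhg12*, since transcripts with retained introns are annotated there, so host reads and reads of unspliced precursor cannot be told apart.

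**Figure D1:**
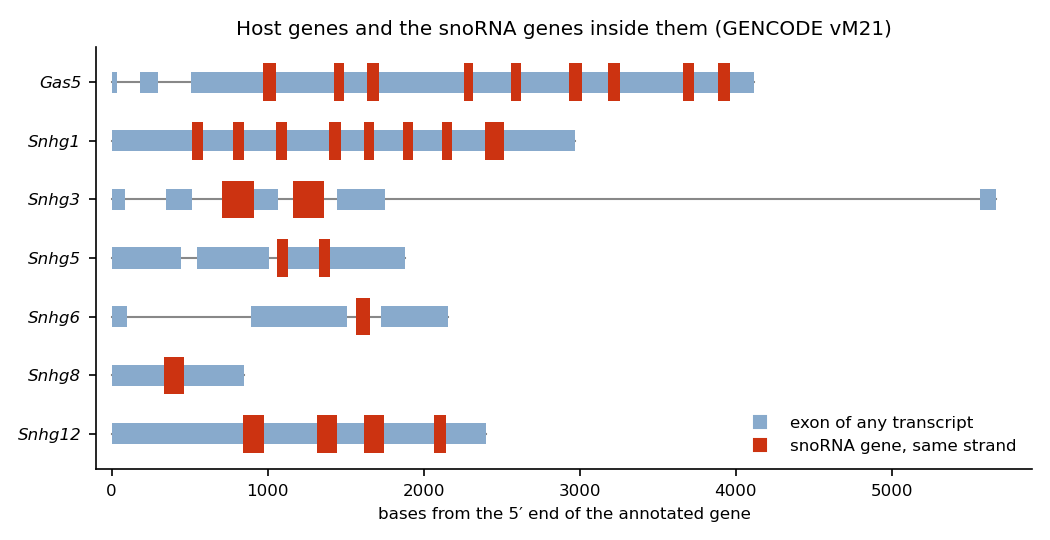
The 7 host genes with an ID are drawn to scale, with distance in bases from the 5′ end of the annotated gene on the x axis, merged exons in blue and snoRNA genes of the same strand in red. *Gas5* held 10 snoRNA genes, 2 of them overlapping copies of *Snord80*, and *Snhg8* held 1.

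WT replicate 1 stood apart from the other WT libraries over the whole table. The first principal component, 54.7% of the variance, had WT replicates 2 and 3 at 26.2 and 25.9, WT replicate 1 at -15.7 and the KO libraries between -19.5 and -7.10. By limma with Benjamini-Hochberg adjustment, 0 of the 13312 genes had an adjusted p under 0.05. The paper, which used DESeq on counts with the same threshold, does report differentially expressed genes between the genotypes, with glycolysis genes lower in KO. Why the 2 tests differ was not tested. In the limma fit 929 genes passed 0.05 before adjustment (6.98%, with 2.48% higher and 4.5% lower in KO), and voom on reads recovered from the values gave 0 and 832. Without WT replicate 1, 1251 genes (9.4%) were called, 3.64% higher and 5.75% lower in KO. KO replicate 2 also stood apart by sex-linked genes, with *Xist*, the RNA of the inactive X chromosome, at 0.014 FPKM (reads counted on a gene, scaled to its length in kilobases and to library depth) against 167 to 279 in the other 5 libraries, and *Ddx3y* of the Y chromosome at 43.3 against at most 0.00945. Without KO replicate 2 the *Gas5* difference given below was 1.74, as with it. The level of *Hif1a* itself was 36.5, 49.8 and 45.8 FPKM in WT and 46.5, 45.6 and 52.8 in KO, and since the value covers the whole gene and not the floxed part alone, it does not check the labels.

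Markers of other cell types also differed among the WT libraries. The 9 macrophage markers summed to 121 FPKM in WT replicate 1, 264 and 204 in WT replicates 2 and 3, and 115 to 148 in KO, most of it from *Adgre1* and *Mpeg1*, which summed to 108, 186 and 167 in WT and 107 to 140 in KO. The other 7 summed to 13.4, 77.2 and 37.2 in WT and 5.82 to 10.8 in KO, with *Lyz2* at 6.18, 58.3 and 26.2 in WT and 0.60 to 3.70 in KO. The 5 plasma cell markers summed to 715, 429 and 399 FPKM in WT and to 505 to 906 in KO. The largest part was *Xbp1*, at 363, 213 and 193 in WT and 334, 233 and 474 in KO. By log2 difference 4 were higher and 1 lower in KO. The lower one was *Sdc1*, at 4.67, 3.80 and 3.19 in WT and 2.68, 3.67 and 4.01 in KO. The 6 neutrophil markers summed to 32.7 FPKM in WT replicate 1 and to at most 0.442 in any other library, with *S100a9* at 0 in all of those. The 8 B-cell markers summed to 3045 to 3917 FPKM in WT and 3060 to 4119 in KO, as their label has it. By log2 difference 6 of them were higher and 2 lower in KO. The sum hides the spread of *Cd79a*, the gene from which cre is expressed in the KO. It was at 1203, 739 and 779 FPKM in WT and 498, 1074 and 611 in KO. Its bearing on the genotype behind each library was not tested. The 6 T-cell markers summed to at most 1.68 FPKM. Per the methods, CD21int CD23+ follicular B cells were sorted from the spleen before culture, a gate that would leave out macrophages, neutrophils and T cells, whereas plasma cells can form in the culture. The part of these cells in the values given below for *Snhg6*, *Snhg12*, *Snhg15* and *Snhg17* was not tested, nor was their part in *Gas5*.

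*Gas5* (ENSMUSG00000053332, chromosome 1 from 161034422 to 161038539, plus strand) was the host gene with the large difference. Its level was 77.8, 41.2 and 48.7 FPKM in WT replicates 1, 2 and 3, and 187, 185 and 176 FPKM in KO replicates 1, 2 and 3. All KO libraries lay above all WT libraries, and the highest WT library was replicate 1. The mean was 55.9 ± 19.4 FPKM in WT and 183 ± 5.82 FPKM in KO (SD, n = 3 each), a ratio of 3.27, and the WT libraries varied more, with a coefficient of variation of 34.6% against 3.19%. These levels rest on 2146, 944 and 937 reads in WT and 3474, 4697 and 3898 reads in KO.

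On the scale of log2(FPKM + 1) the mean of *Gas5* was 1.74 higher in KO than in WT (SE 0.21). The difference was between 1.55 and 2.00 when each library was left out in turn, with 2.00 without WT replicate 1. It ranked 5 among the differences of the 13312 genes tested, counted from the highest in KO. The 4 genes above it had lower mean levels than *Gas5*, at 119 FPKM, as the plot of all genes tested shows. Among these 4 was the Y-linked *Ddx3y* (1.82), whose level came from the male library, KO replicate 2 (43.3 FPKM, against at most 0.00945 in the others). Since *Gas5* was chosen for its difference, no p-value is given. The rank of *Gas5* by level among the genes tested was 1676, 3270 and 2827 in WT and 585, 602 and 645 in KO.

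**Figure D2:**
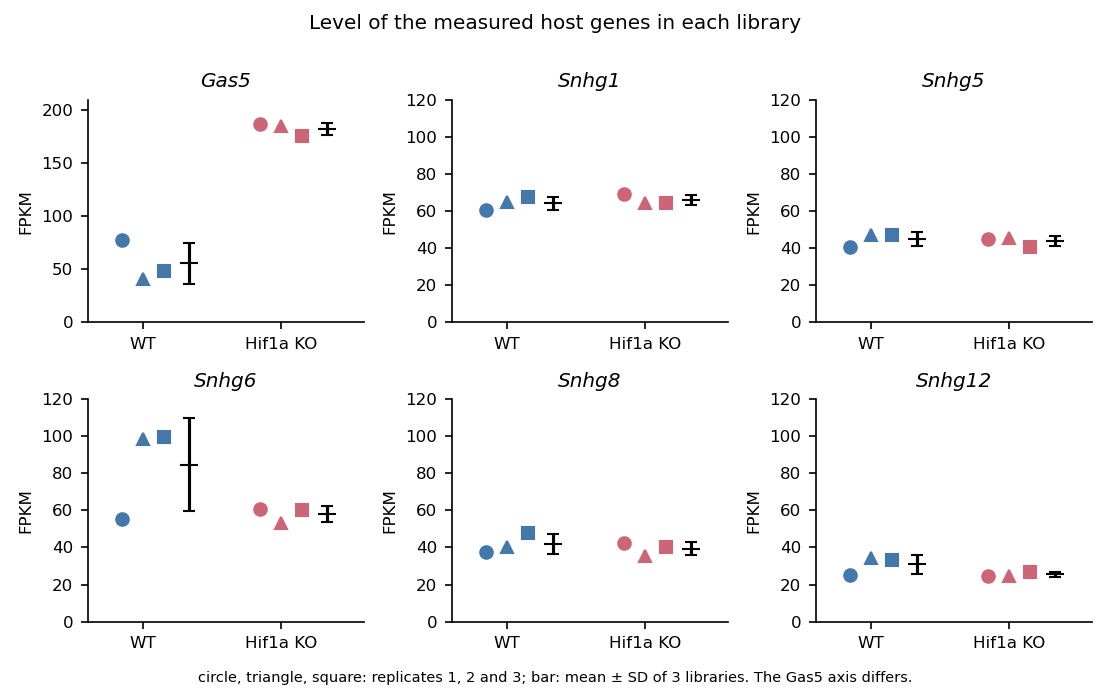
Each panel gives FPKM in WT (blue) and *Hif1a* KO (red) libraries for 1 host gene, with replicates 1, 2 and 3 as circle, triangle and square and the mean ± SD of 3 libraries in black. *Gas5* is at 41.2 to 77.8 in WT and 176 to 187 in KO, on a taller axis than the others, and in *Snhg6* and *Snhg12* WT replicate 1 lies with the KO libraries.

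*Snhg1* (ENSMUSG00000108414, chromosome 19 from 8723475 to 8726443, plus strand) hosts box C/D snoRNAs, *Snord22* among them. Its level was 60.6, 64.9 and 67.5 FPKM in WT and 69.3, 64.4 and 64.4 FPKM in KO. The groups overlapped, and the highest library was only 1.14 times the lowest. The log2 difference, KO minus WT, was 0.04 (SE 0.07) and turned to -0.00449 without WT replicate 1.

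*Snhg5* (ENSMUSG00000097195, chromosome 9 from 88521050 to 88522929, minus strand) carries *Snord50a* and *Snord50b*, both box C/D. It was at 40.5, 47.3 and 47.4 FPKM in WT and at 44.9, 45.6 and 40.7 FPKM in KO. The groups overlapped, with a log2 difference of -0.04 (SE 0.09), a value whose sign changed with the scaling of the libraries and with the library left out.

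*Snhg8* (ENSMUSG00000104960, chromosome 3 from 123507552 to 123508404, minus strand) carries 1 box H/ACA snoRNA, *Snora24*. It was at 37.7, 40.3 and 47.9 FPKM in WT and at 42.2, 35.5 and 40.4 FPKM in KO. The groups overlapped here too, with a log2 difference of -0.09 (SE 0.11), which was 0.0107 without WT replicate 3.

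*Snhg6* (ENSMUSG00000098234, chromosome 1 from 9941959 to 9944118, minus strand), the host of *Snord87*, was at 55.6, 98.7 and 99.8 FPKM in WT and at 60.6, 53.2 and 60.1 FPKM in KO. WT replicates 2 and 3 stood above the other 4 libraries, and WT replicate 1 lay within the KO range. The log2 difference was -0.49 (SE 0.22) with all libraries and -0.77 without WT replicate 1.

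*Snhg12* (ENSMUSG00000086290, chromosome 4 from 132308623 to 132311024, plus strand), which carries *Snora16a*, *Snora44*, *Snora61* and *Snord99*, was at 25, 34.5 and 33.5 FPKM in WT and at 24.9, 24.7 and 27.0 FPKM in KO. It had the same arrangement as *Snhg6*, with WT replicates 2 and 3 high and WT replicate 1 among the KO libraries. The log2 difference was -0.26 (SE 0.13), and -0.40 without WT replicate 1.

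*Snhg3* (ENSMUSG00000085241, chromosome 4 from 132348014 to 132353686, minus strand), the host of *Snora73a* and *Snora73b*, was listed at 0 in all 6 libraries. It overlaps *Rcc1*, the nucleotide exchange factor of Ran, on the same strand, and 135 exon bases are shared. *Rcc1* was at 66.2, 76.1 and 81.3 FPKM in WT and at 66.5, 67.9 and 62.7 FPKM in KO. How the authors counted reads that fall on both genes is not stated, so the 0 of *Snhg3* is no measure of its RNA.

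Of the 6 measured host genes, 1 (*Gas5*) had groups that did not overlap. Of all genes tested, 10.1% had such groups, 4.06% with KO above WT and 6.03% with KO below. Nothing is read from this count, since *Gas5* was chosen for its difference. The median log2 difference of the 5 measured *Snhg* genes was -0.0868, beside -0.0284 for all genes tested. The sum of the 5 *Snhg* genes was 219, 286 and 296 FPKM in WT and 242, 223 and 233 FPKM in KO. *Gas5* made up 26.2%, 12.6% and 14.1% of the sum of all 6 measured hosts in WT and 43.6%, 45.2% and 43.1% in KO. In bulk RNA, more cells of a kind that expresses *Gas5* and more *Gas5* RNA per cell cannot be told apart.

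The order of the hosts by level differed between the groups. In WT it was *Snhg6* (84.7 ± 25.2 FPKM), *Snhg1* (64.4 ± 3.49), *Gas5* (55.9 ± 19.4), *Snhg5* (45.1 ± 3.93), *Snhg8* (42.0 ± 5.33) and *Snhg12* (31.0 ± 5.20), as mean ± SD of 3 libraries. Neighbours in that order overlapped in range except *Snhg8* and *Snhg12*. In KO it was *Gas5* (183 ± 5.82 FPKM), *Snhg1* (66.0 ± 2.87), *Snhg6* (58.0 ± 4.13), *Snhg5* (43.7 ± 2.61), *Snhg8* (39.4 ± 3.47) and *Snhg12* (25.5 ± 1.28), and only *Snhg5* and *Snhg8* overlapped. The order also depends on the gene length that the authors used, which was 741 bases for *Gas5*, 810 for *Snhg1*, 766 for *Snhg5*, 581 for *Snhg6*, 584 for *Snhg8* and 643 for *Snhg12*. Per base of all annotated exons (3760 for *Gas5*, 853 for *Snhg8*) the WT mean was 11.0 for *Gas5* and 28.7 for *Snhg8*, and *Gas5* was then above *Snhg12* (8.30) only. In KO the *Gas5* mean on that scale, 36, was still the highest, before *Snhg6* at 29.4.

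**Figure D3:**
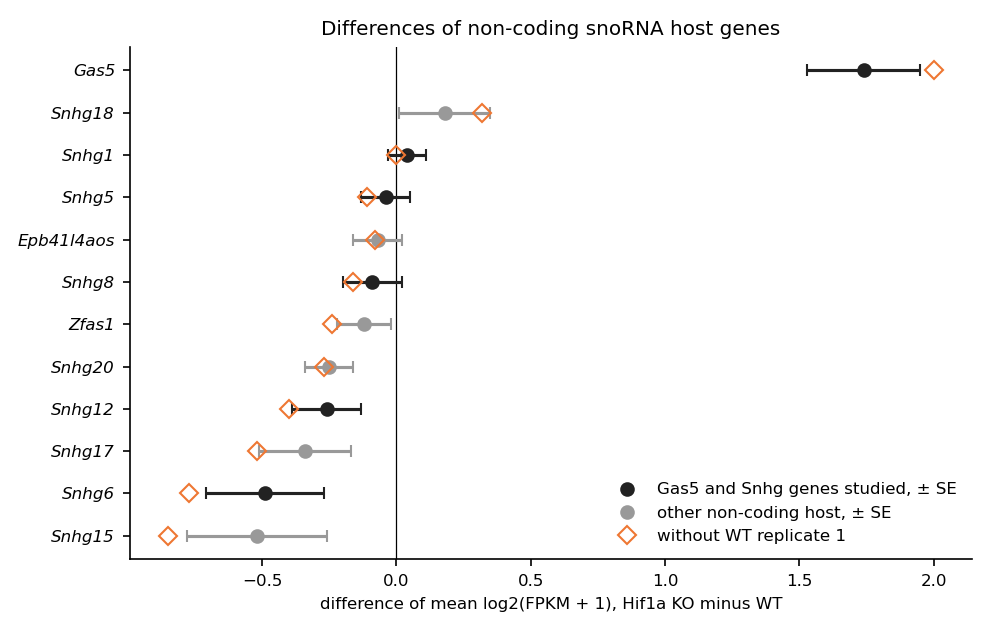
The x axis gives the difference of mean log2(FPKM + 1), KO minus WT, for the 6 measured host genes (black) and the 6 other non-coding hosts tested (grey), with SE bars from the limma fit and, as open diamonds, the difference without WT replicate 1. *Gas5* lies at 1.74 and the others between -0.52 and 0.18.

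The other genes named *Snhg* gave no second case like *Gas5*. Of 7 listed, *Snhg9*, *Snhg11* and *Snhg14* were under the filter, *Snhg9* at 0 in every library. *Snhg15* was at 38.6, 77.1 and 77.0 FPKM in WT and at 46.5, 41.1 and 39.8 FPKM in KO, and *Snhg17* at 18.4, 26.8 and 27.6 in WT and at 20.9, 19.0 and 16.3 in KO. In both, WT replicates 2 and 3 were high, and WT replicate 1 lay within the KO range in *Snhg17* and just below it in *Snhg15*, as in *Snhg6* and *Snhg12*. *Snhg20* was at 13.8, 14.7 and 14.3 FPKM in WT and at 13.0, 12.2 and 10.5 in KO, the 1 case of the 4 in which KO lay below WT throughout, as it did in 6.03% of all genes tested. *Snhg18* was at 3.98, 2.33 and 3.06 FPKM in WT and at 2.96, 4.04 and 3.88 in KO. The log2 differences were -0.52 (SE 0.26), -0.34 (SE 0.17), -0.25 (SE 0.09) and 0.18 (SE 0.17).

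Among non-coding hosts with other names, *Zfas1*, which carries snoRNAs at the start of *Znfx1*, was at 87.7, 111 and 112 FPKM in WT and at 94.3, 90.2 and 98.7 in KO, with a log2 difference of -0.12 (SE 0.10). *Epb41l4aos*, a host near *Epb41l4a*, was at 42.3, 46.9 and 40.2 FPKM in WT and at 38.1, 40.2 and 45 in KO, a log2 difference of -0.07 (SE 0.09). *Dancr* was under the filter. In 8 of the 9 genes named *Snhg* that passed the filter, WT replicate 1 was nearer to the KO mean than to the mean of WT replicates 2 and 3, as it was in 77.3% of all genes tested, and in *Snhg1* the means themselves were close.

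**Figure D4:**
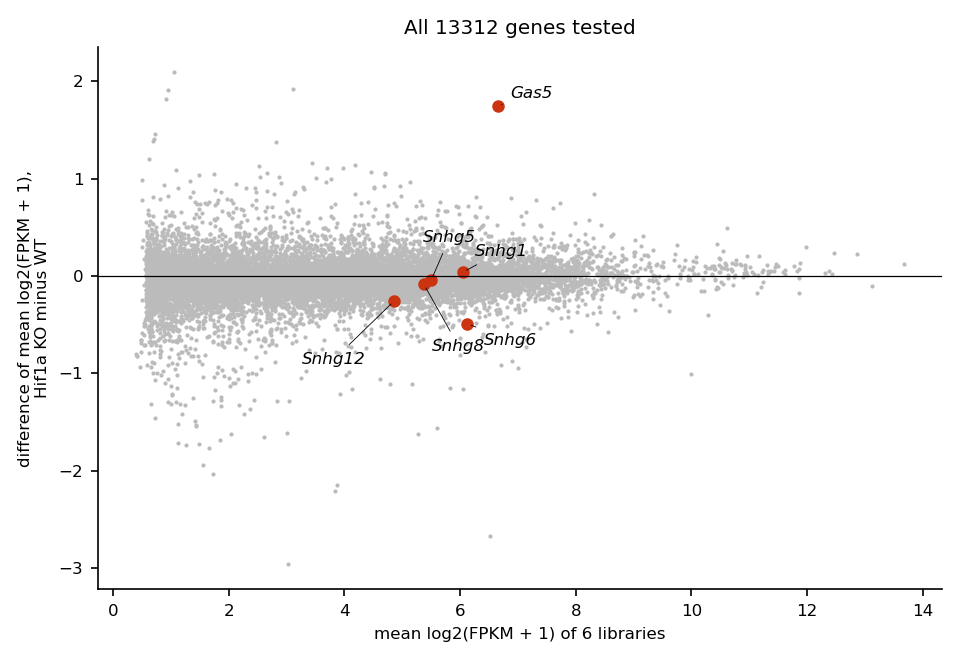
Each grey point is 1 of 13312 genes tested, with the mean log2(FPKM + 1) of 6 libraries on the x axis and the difference, KO minus WT, on the y axis. The 6 measured host genes are in red, with *Gas5* at 1.74 and the 5 *Snhg* genes between -0.49 and 0.04.

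Genes whose starts lie within 20 kb of a host, or that overlap one, were read for the same libraries. *Zbtb37*, a zinc finger gene on the opposite strand whose start lies 427 bases from that of *Gas5*, was at 3.66, 5.69 and 5.63 FPKM in WT and at 5.74, 4.30 and 4.19 in KO, a log2 difference of -0.05 (SE 0.18). Its groups overlapped, unlike those of *Gas5*. *Slc3a2*, the heavy chain of the CD98 amino acid transporter, starts 106 bases from *Snhg1* on the opposite strand. It was at 106, 213 and 211 FPKM in WT and at 102, 104 and 108 in KO, the split of *Snhg6* and not that of *Snhg1*. Its log2 difference was -0.68 (SE 0.26), and -1.01 without WT replicate 1. Near *Snhg1* there were also *Wdr74*, a ribosome assembly factor (31.5, 38.7 and 39.2 FPKM in WT, 31.8, 30.6 and 30.9 in KO), and *Stx5a*, a Golgi syntaxin (73.6, 58.0 and 59.8 in WT, 67.5, 68.6 and 75.6 in KO), while *1700092M07Rik* was near the filter at 0.274 to 0.995 FPKM. *Mcmdc2*, which overlaps *Snhg6*, and *Rab42*, near *Snhg12*, were under the filter.

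The 5 genes with the pattern most like that of *Gas5* were *Zfp280b* (r = 0.989), *Ttc33* (r = 0.982), *Gba2* (r = 0.981), *Ighv5-2* (r = 0.980) and *Cept1* (r = 0.976). The likeness is Pearson's r of log2(FPKM + 1) over the same 6 libraries, 3 per genotype, among 9274 genes with a mean of at least 5 FPKM, of which 135 had an r above 0.9, and it is given as a description. The sizes were far apart. *Cept1*, an enzyme of phospholipid synthesis, was at 37.6, 35.9 and 36.8 FPKM in WT and at 39.4, 39.2 and 38.6 in KO, a log2 difference of 0.09. *Zfp280b* (0.13), *Ttc33* (0.16) and *Gba2* (0.19), a glucosylceramidase, were alike. *Ighv5-2*, a heavy chain variable segment, had the largest of the 5, with 13.1, 8.72 and 9.84 FPKM in WT and 16.6, 15.8 and 16.2 in KO and a log2 difference of 0.59.

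No other snoRNA host tested had a difference as large as that of *Gas5*, which was chosen for its difference, so nothing is read from this. The annotation gave 252 other genes with a snoRNA in an intron, of which 164 were tested. Their median log2 difference was -0.0579, beside -0.0284 for all genes tested, with 55 above 0 and 109 below. None of the 164 was called by limma over the 6 libraries, and at an unadjusted p under 0.05 there were 13 (7.93%, beside 6.98% of all genes). Without WT replicate 1, 14 were called (8.54%, beside 9.4%), 2 higher and 12 lower in KO. The highest in KO was *Map2*, a microtubule-associated protein, at 6.56, 3.08 and 3.72 FPKM in WT and 8.0, 6.85 and 7.90 in KO (log2 difference 0.70, SE 0.22, limma adjusted p = 0.626, and 0.00824 without WT replicate 1). The lowest were *Lrrc28* (-0.70, SE 0.28) and *Eng*, the TGF-β co-receptor endoglin (-0.66, SE 0.32), each with WT replicate 1 near the KO libraries.

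The 28 protein-coding hosts written down by name, such as ribosomal protein genes and *Nop56*, had a median of 0.00106, 14 above 0 and 14 below. *Hspa9*, mitochondrial HSP70, was at 292, 394 and 399 FPKM in WT and at 305, 260 and 261 in KO (log2 difference -0.38, SE 0.14). *Nop56*, both a host and a core protein of box C/D particles, was at 168, 230 and 235 FPKM in WT and at 181, 166 and 150 in KO (-0.33, SE 0.14), and *Rpl7a* was at -0.20 (SE 0.09). None was called over the 6 libraries, 1 passed an unadjusted p of 0.05 (3.57%, beside 6.98% of all genes), and 2 were called without WT replicate 1 (7.14%, beside 9.4%).

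The proteins of snoRNA particles and of their assembly had differences of 1 sign, the smallest of them near 0. All 19 of these snoRNP protein genes lay below 0, with a median of -0.17, beside -0.0284 for all genes, of which 7708 of 13312 lay below 0. None was called over the 6 libraries, 3 passed an unadjusted p of 0.05 (15.8%, beside 6.98%), and 3 were called without WT replicate 1, all lower in KO (15.8%, beside 5.75% of all genes called lower). *Shq1*, an assembly factor of box H/ACA particles, was at 5.52, 6.65 and 6.16 FPKM in WT and at 4.97, 4.32 and 5.10 in KO, so that KO lay below WT throughout (log2 difference -0.30, SE 0.10, limma adjusted p = 0.626). *Nolc1*, a nucleolar chaperone of the particles, was at 37.7, 46.7 and 47.5 FPKM in WT and at 40.7, 36.2 and 32.1 in KO (-0.27, SE 0.12). In 4 of the 19 the groups did not overlap (21.1%, beside 10.1% of all genes tested). *Rpap3* (-0.01, SE 0.07), *Znhit3* (-0.01, SE 0.08), *Pih1d1* (-0.02, SE 0.06) and *Ruvbl1* (-0.03, SE 0.06) lay within their SE of 0. Signs this small may change with the scaling of the libraries.

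Factors of nonsense-mediated decay, the pathway that removes spliced *Gas5* RNA, had small differences. The 16 genes tested had a median of -0.0702, 4 above 0 and 12 below, and 1 had an unadjusted p under 0.05 (6.25%, beside 6.98% of all genes). *Magohb*, a subunit of the exon junction complex, was at 18.7, 23.1 and 23.7 FPKM in WT and at 18.5, 18.6 and 18.9 in KO (log2 difference -0.21, SE 0.10). *Smg8*, a regulator of the kinase SMG1, was at 15.1, 16.0 and 17.1 FPKM in WT and at 14.0, 14.1 and 13.9 in KO (-0.18, SE 0.07), the 1 gene of the list without overlap (6.25%, beside 10.1%). *Pnrc2*, a decapping partner, was at 168, 133 and 131 FPKM in WT and at 155, 152 and 178 in KO (0.17, SE 0.12). None of the 16 was called with all libraries and 1 was without WT replicate 1 (6.25%, beside 9.4%).

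The glucocorticoid receptor, its chaperones (*Fkbp4*, *Hsp90aa1* and *Hsp90ab1*) and its targets were listed because *Gas5* RNA is known to bind the receptor. Of 12 genes 11 were tested, with a median of -0.126, 1 above 0 and 10 below. *Ddit4*, an inhibitor of mTORC1 that is also a HIF-1α target, was at 82.1, 126 and 116 FPKM in WT and at 69.8, 75.6 and 76.6 in KO, so KO lay below WT throughout (log2 difference -0.52, SE 0.15, limma adjusted p = 0.626, and 0.00603 without WT replicate 1). *Dusp1*, a MAP kinase phosphatase, was at 3.06, 4.22 and 3.46 FPKM in WT and at 2.61, 2.60 and 2.09 in KO (-0.41, SE 0.13). *Sgk1*, a serum- and glucocorticoid-induced kinase, was at 4.92, 7.60 and 6.15 FPKM in WT and at 5.27, 3.99 and 6.11 in KO (-0.24, SE 0.18). None was called over the 6 libraries, 2 of 11 passed an unadjusted p of 0.05 (18.2%, beside 6.98% of all genes), and 1 was called without WT replicate 1 (9.09%, beside 9.4%). In 3 of the 11 the groups did not overlap, with KO below WT (27.3%, beside 10.1% of all genes in either direction). These were *Ddit4*, *Dusp1* and the chaperone *Fkbp4*. The receptor gene *Nr3c1* (-0.01, SE 0.08) and the targets *Tsc22d3* (0.05, SE 0.11), *Fkbp5* (-0.06, SE 0.06) and *Per1* (-0.03, SE 0.08) were near 0.

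Ribosomal protein genes, the best known genes with TOP starts, had small differences that were mostly above 0. Of the 79 tested, 67 lay above 0 and 12 below, with a median of 0.0553, beside -0.0284 for all genes. None was called with all libraries or without WT replicate 1, and 1 had an unadjusted p under 0.05 (1.27%, beside 6.98% of all genes). *Rpl22l1*, the paralog of *Rpl22*, was at 39.8, 30.1 and 31.6 FPKM in WT and at 52.9, 35.6 and 42.9 in KO (log2 difference 0.35, SE 0.16). *Rpl7a*, which went the other way, was at 605, 554 and 623 in WT and at 486, 482 and 581 in KO (-0.20, SE 0.09). *Rpl31* was at 1532, 1267 and 1282 in WT and at 1501, 1413 and 1699 in KO (0.18, SE 0.11). The *Gas5* difference of 1.74, for which it was chosen, was larger than any of those in the lists, which reached 0.70. Ribosomal protein genes have many pseudogenes, and how reads that align to several places were counted is not stated.

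**Figure D5:**
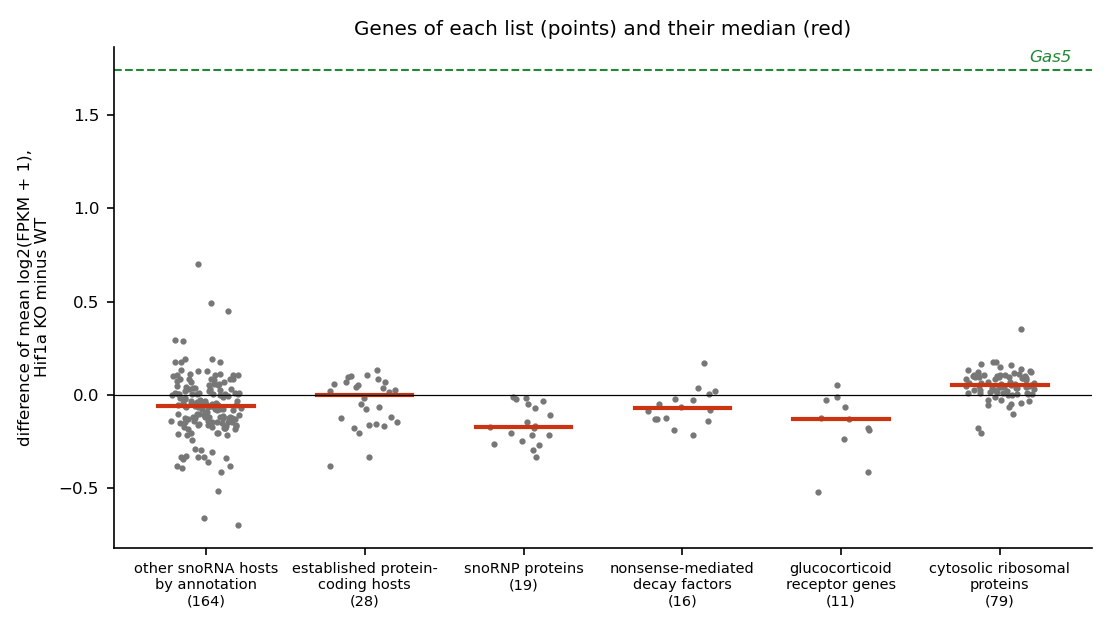
Each point is the difference of mean log2(FPKM + 1), KO minus WT, of 1 gene of the list named on the x axis, with the number tested in brackets, the median in red and *Gas5* as a dashed line. The medians lie between -0.17 (snoRNP proteins) and 0.0553 (ribosomal proteins), and no point reaches the line at 1.74.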

How the data were processed

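Bulk RNA-seq values of 6 libraries (3 WT, 3 *Hif1a* KO) were used. The authors filtered the reads, aligned them to mm10 with TopHat, counted reads per gene with HTSeq and deposited FPKM values, 1 column per library, and the authors' own test used DESeq. The annotation, the strand option and the treatment of reads with several alignments are not given in the sources used here, so overlapping genes are uncertain. The methods also name anti-IgM with anti-CD40 as a stimulus, and the labels name LPS. The 8 host genes and all lists were chosen with earlier results of these data known.

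IDs were matched to GENCODE vM21 (GRCm38), which held 46488 of 46983. The worth of 1 read was recovered from genes with 1 transcript, of which 9109 of 9775 above 0 gave whole reads (tolerance 0.02) at the annotated length. Other genes were fitted with the shortest length that gave whole reads, at least 1 for a value above 0. This held in 16647 of the 16647 genes above 0 in all libraries, and with fewer libraries it fits more freely. The depths were 25030210 to 37222477 reads per library, where a counted read may be a pair. Host levels above 0 rested on 400 to 4697 reads, and the 95% exact Poisson intervals, which cover counting error only, had half-widths of 2.87% to 9.93%. No 2 libraries were identical (0 pairs).

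Differences are KO minus WT means of log2(FPKM + 1), which understates changes of low genes, with SE from limma 3.58.1 (R 4.3.3, eBayes with trend) over the 13312 genes whose mean was 0.5 FPKM or more, and a Benjamini-Hochberg adjusted p under 0.05 was a call. The p-values set each difference against the spread between these libraries, which are not known to come from separate mice. The fit was tested on simulated data. Tables and figures were made with Python 3.11.15, pandas 2.3.3, numpy 2.4.6 and matplotlib 3.10.9. The genes named are the 8 hosts, other *Snhg* genes, *Zfas1*, *Dancr* and *Epb41l4aos*, the called or else the 3 most different genes of each list, the 5 most like *Gas5*, and protein-coding genes that start within 20 kb of a host. *Lyz2*, *Adgre1*, *Mpeg1*, *S100a9*, *Xist*, *Ddx3y* and *Mcmdc2* were named after their values were seen. So were *Cd79a*, *Xbp1*, *Sdc1*, *Rpap3*, *Znhit3*, *Pih1d1*, *Ruvbl1*, *Nr3c1*, *Tsc22d3*, *Fkbp5*, *Per1*, *Fkbp4*, *Hsp90aa1* and *Hsp90ab1*. A median over 7 *Snhg* genes was planned, and 5 had values. Alternatives were another pseudocount, filter, scaling, variance model or replicate block, voom on recovered reads and each library left out.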

Additional observations from a re-analysis of the deposited data

How the results depend on the processing

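Of 170 alternative values for 13 results, 163 kept their direction and, where there was a test, their side of the threshold. The *Gas5* difference (1.55 to 2.00 with each library left out), the median of the measured *Snhg* genes (-0.159 to -0.00446) and the medians of the 5 lists kept their sign throughout. The number of genes called, 0 with all libraries, ran from 0 to 1251 with each library left out (1251 without WT replicate 1, 1 without KO replicate 1) and was 1449 with library weights, an alternative chosen after seeing the data; the cause was not tested. With each library left out, the difference of *Snhg1* ran from -0.00449 to 0.0722, of *Snhg5* from -0.115 to 0.00738 and of *Snhg8* from -0.159 to 0.0107. Small differences changed sign: *Snhg1* was at -0.00449 without WT replicate 1, *Snhg5* at 0.00277 with median-ratio scaling and at 0.00738 without KO replicate 3, and *Snhg8* at 0.0107 without WT replicate 3. Another scaling moved the median of all genes from -0.0284 to 0.0107 at most. Same-numbered samples did not deviate together (r = -0.0987, 0.139 and -0.276). With 3 libraries per group and WT replicate 1 apart, this cannot show whether same-numbered cultures were made together. A replicate block gave 0 calls and, by limma, 694 genes at an unadjusted p under 0.05 in place of 929. The *Gas5* difference was then 1.74. At this depth counting error was at most 9.93% of a host level above 0.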
